A study of Mus musculus with 16 samples.

Results

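Complement is a set of plasma and tissue proteins that mark cells and particles for removal. The 9 genes described here are components of this system, *C1ra*, *C2*, *C3*, *C4b*, *C6*, *C7*, *Cfb*, *Cfi* and *Hc*, taken by name from the 31274 genes of an RNA-seq table of the mouse seminal vesicle (SV). They were listed with measured values in view, since the higher level of *C7* in αERKO-veh than in WT-veh was part of the reason for the choice. The members are therefore described without a test in that contrast, and a count over them is no independent evidence of a direction.

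The SV was taken from 5-week-old male C57Bl/6 mice in 4 groups of 4 samples each. WT-veh and WT-DES are wild type mice, and αERKO-veh and αERKO-DES are mice bred from heterozygous parents that lack oestrogen receptor α (ERα) because both copies of its gene, *Esr1*, are disrupted. DES (diethylstilbestrol, a synthetic oestrogen) was injected under the skin in corn oil, at a daily dose per pup of 2 µg from day 1 to day 5 of life, and the vehicle (veh) groups received corn oil alone. The WT pups were born to pregnant females from a supplier and the αERKO pups came from heterozygous breeding, so that the source of the litters and the genotype cannot be told apart. The methods state 4 samples per group for RNA-seq, while for RNA extraction they give individual mice in the other groups and 3 pools of mice for WT-DES.

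Expression was deposited as FPKM, fragments scaled to exon length and to the mapped total, which allows levels to be compared between genes but holds no counts, and sample depth is therefore unknown. Changes are given as differences of log2(FPKM + 1) from 1 limma model of the 16 samples, a scale that understates the change of genes near 1 FPKM, and p-values are adjusted over the 15988 genes tested, which are those whose mean was above 1 FPKM in any of the groups. A gene is called when its adjusted p is at most 0.05, its group means differ by at least 1.5-fold and 1 of the means is above 1 FPKM. *Esr1* ranged from 1.30 to 1.75 FPKM (αERKO-veh) and from 0.91 to 1.64 FPKM (αERKO-DES), below the 2.81 to 4.55 FPKM of WT-veh and the 8.74 to 19.6 FPKM of WT-DES, and no sample went against its genotype label. The sum of all FPKM was 590446 to 652708 in WT-veh and lower, 375207 to 437619, in WT-DES. The SV secretory list (*Svs1*, *Svs2* and 5 others) was detected in every sample, and its 7 genes were all lower in WT-DES than in WT-veh. WT-DES sample 1 stood apart from its group in neutrophil, smooth muscle and mesothelial genes, and without it the number of members called between WT-DES and WT-veh was again 6.

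Activation of complement starts along 3 routes. The classical route begins with C1q and its proteases C1r and C1s, which cut C4 and C2, and the lectin route uses other recognition proteins to the same end. The alternative route runs through factor B, factor D and properdin. All routes meet at C3, from which C5, C6, C7, C8 and C9 assemble the pore that enters target membranes, while factor I and other inhibitors break the active enzymes down. Most plasma complement is made in the liver, but macrophages, fibroblasts and epithelia make some of it locally, and *C3* is a long known oestrogen-responsive secretory product of the rodent uterus.

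*C3*, the protein on which the 3 routes converge, lies on chromosome 17 of GRCm38 (57203970 to 57228136, minus strand, GENCODE M21). It was at 233, 242, 194 and 221 FPKM in the WT-DES samples against 24.7, 11.5, 15.02 and 18.5 after vehicle, and at 10.8, 7.5, 8.17 and 7.01 in αERKO-DES against 11.9, 33.1, 8.35 and 19.2 in the αERKO controls. Every WT-DES sample was above 194 FPKM and every other sample below 34 FPKM. The mean rose from 17.4 ± 5.62 (SD, n = 4) in WT-veh to 223 ± 20.8 in WT-DES, 12.8-fold, with a log2 difference of 3.65 and an SE of 0.31 (limma adjusted p = 8.79e-08). In αERKO mice the mean was 18.1 ± 10.9 after vehicle and 8.36 ± 1.66 after DES, a log2 change of −0.87 (95% interval −1.54 to −0.21) that did not pass the threshold (limma adjusted p = 0.11).

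The 250 bases before the start site of *C3* are shown because this gene is the best known oestrogen target among the members and its promoter is the place where a response element would be sought first. The sequence (RefSeq start site, GRCm38.p6, chr17:57228137-57228386, minus strand) reads 5′ to 3′, with capitals for 2 copies of GGTCA, the core of an oestrogen response element, and for TTGCGAAA, a C/EBP motif.
C3: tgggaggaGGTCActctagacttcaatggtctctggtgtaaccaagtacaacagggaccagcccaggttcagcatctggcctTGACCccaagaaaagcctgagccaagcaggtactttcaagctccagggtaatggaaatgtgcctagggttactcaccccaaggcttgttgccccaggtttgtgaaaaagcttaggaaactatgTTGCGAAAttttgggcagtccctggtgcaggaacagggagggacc
The GGTCA copies begin at −242 on the gene's strand and at −168 on the other strand, and TTGCGAAA begins at −45. A window of 300 bases (250 before and 50 after the start) was found in RefSeq for 5 of the 9 members, *C1ra*, *C3*, *C6*, *C7* and *Hc*. GGTCA was also present in the windows of *C6* (at −39) and *C7* (at −71), and a C/EBP motif in that of *C1ra* (at 16). On either strand, GGTCA was found in 40.5% of the 32851 windows of all genes and the C/EBP motif TTGCNNAA in 10.8%. A whole element, GGTCANNNTGACC, which contains GGTCA on both strands, was found in 0.07% of all windows and in none of the 5, which says only that these letters are not within these windows. Neither the interferon stimulated element TTTCNNTTTC (3.44% of windows) nor the androgen and glucocorticoid response element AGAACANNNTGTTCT (0.00913%) was found in them.

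**Figure D1:**
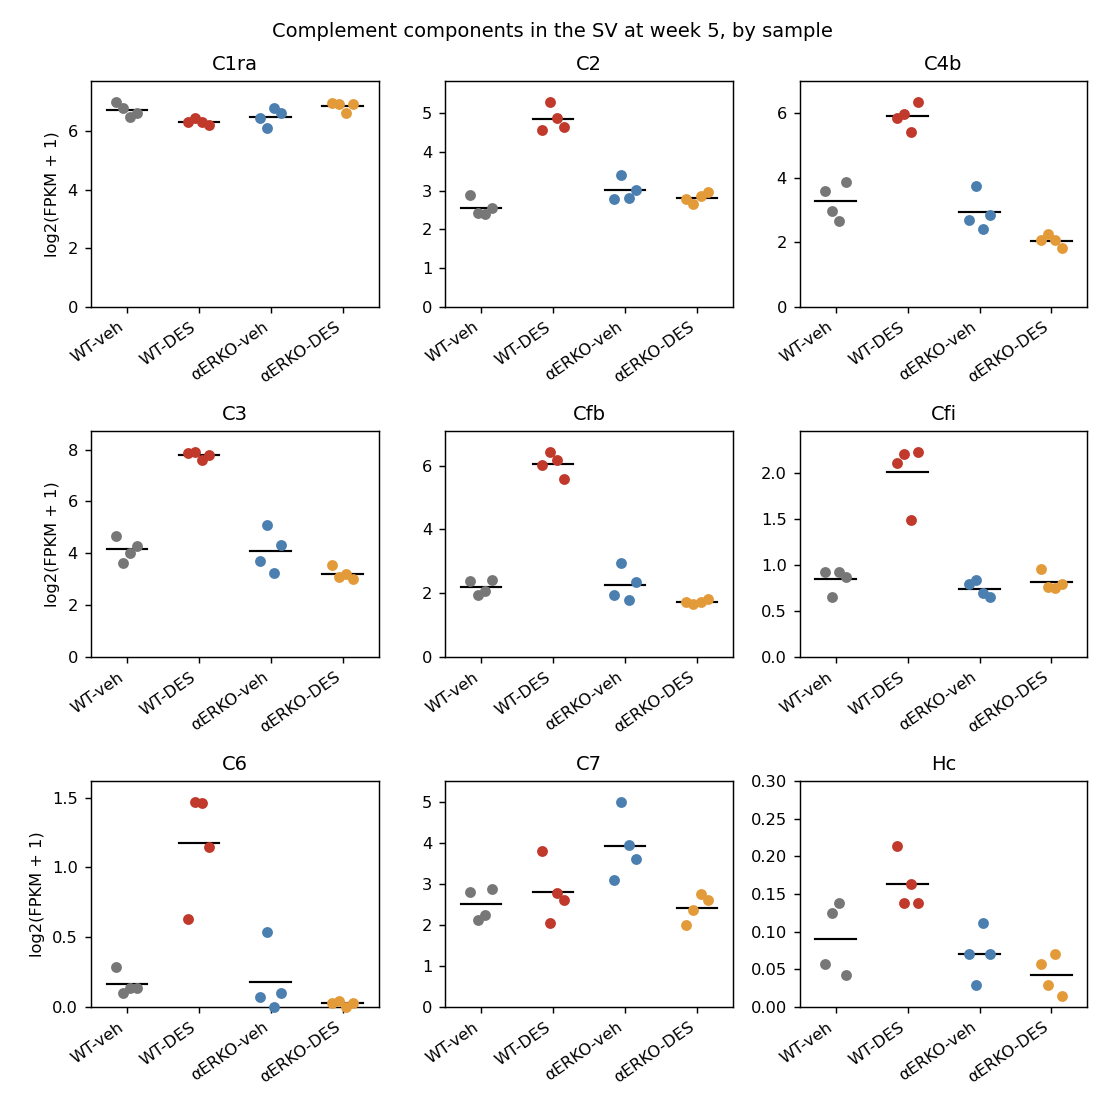
Each panel plots 1 complement gene, with log2(FPKM + 1) on the vertical axis, the 4 groups on the horizontal axis, a point per sample and a line at the group mean (the panels have separate scales). The WT-DES points lie above all others for C2, C4b, C3, Cfb, Cfi and C6, the αERKO-veh points are highest on average for C7, and the C1ra means lie between 79.2 and 116 FPKM, with WT-DES below WT-veh and αERKO-DES.

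*Cfb* and *C2* encode the related proteases that form the catalytic part of the alternative and of the classical C3 convertase. They are neighbours on chromosome 17, *Cfb* from 34856374 to 34862518 and *C2* from 34862604 to 34898265, both on the minus strand, with 85 bases between them. No exact stretch of 1 read length is shared by their longest transcripts. Other transcripts, inexact matches and RNA that spans both genes were not checked. *Cfb* was at 4.23, 2.87, 3.19 and 4.32 FPKM without and 64.1, 85.9, 72.1 and 47.5 FPKM with DES in WT mice, and 2.83, 6.77, 2.45 and 4.05 without and 2.28, 2.17, 2.28 and 2.55 with DES in αERKO mice. The 12 samples outside WT-DES stayed below 7 FPKM, and those of WT-DES were all above 47 FPKM. The mean rose from 3.65 ± 0.732 (SD, n = 4) to 67.4 ± 16.1 with DES in WT mice, 18.5-fold, with a log2 difference of 3.86 and an SE of 0.22 (limma adjusted p = 2.13e-09), the largest among the members. *C2* was at 5.91, 9.66, 5.98 and 7.05 FPKM (αERKO-veh), 5.89, 5.28, 6.30 and 6.84 FPKM (αERKO-DES), 6.40, 4.38, 4.24 and 4.80 FPKM (WT-veh) and 22.8, 38.4, 28.5 and 23.8 FPKM (WT-DES). Its level in WT-veh was near that of *Cfb*, and it rose by a smaller factor, from a mean of 4.96 ± 0.992 to 28.4 ± 7.15, 5.72-fold, with a log2 difference of 2.29 and an SE of 0.17 (limma adjusted p = 2.38e-08). With DES in αERKO mice the log2 change was −0.52 for *Cfb* (95% interval −0.996 to −0.05, limma adjusted p = 0.16) and −0.19 for *C2* (−0.55 to 0.18, limma adjusted p = 0.519).

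*C4b*, the C4 gene whose product is cut by the C1 complex and joins C2 in the classical convertase, lies in the same stretch of chromosome 17 (34728380 to 34743882, minus strand). It was at 57.7, 62.5, 41.6 and 81.8 FPKM in the WT-DES samples against 11.0, 6.83, 5.30 and 13.8 after vehicle, and at 3.16, 3.73, 3.16 and 2.56 in αERKO-DES against 5.50, 12.5, 4.26 and 6.26 in the αERKO controls. WT-DES was again apart from all other samples, and at the other end the αERKO-DES samples lay below every sample of the remaining groups. The mean rose from 9.23 ± 3.87 to 60.9 ± 16.6 with DES in WT mice (6.60-fold, log2 change 2.64, standard error 0.30, limma adjusted p = 1.42e-06). In αERKO mice it was 7.13 ± 3.67 after vehicle and 3.15 ± 0.478 after DES (log2 change −0.88, 95% interval −1.51 to −0.25, limma adjusted p = 0.0973). *C4b* has a near-identical copy, *C4a*, and 11.3% of the read-length stretches of its longest transcript also occur in *C4a*, so that the split of reads between the copies is uncertain. *C4a* moved the same way, from 3.08 ± 0.992 to 14.2 ± 2.89 FPKM with DES in WT mice (log2 change 1.91, limma adjusted p = 3.42e-06), and *C4b* held 74.1% ± 6.57 (SD, n = 4) of their summed FPKM in WT-veh and 80.7% ± 3.20 in WT-DES.

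*C1ra* encodes the C1r protease, which is activated when C1q binds and then activates C1s (chromosome 6, 124512405 to 124523443, plus strand). It was at 129, 109.9, 89.7 and 97.4 FPKM without and 78.2, 86.8, 78.6 and 73.1 FPKM with DES in WT mice, and 87.8, 68.3, 111 and 96.9 without and 124, 121, 98.0 and 122 with DES in αERKO mice. It was the member with the highest level outside WT-DES, where *C3* was higher. All WT-DES samples were below all WT-veh samples, but the difference was small, from 106 ± 17.0 to 79.2 ± 5.67, 1.34-fold lower with a log2 difference of −0.41 and an SE of 0.14 (limma adjusted p = 0.014), and fell short of the 1.5-fold threshold. Its sign depended on the scaling between samples, since the log2 change was 0.18 after quantile normalization and 0.02 after rescaling to equal totals without the 20 most abundant genes. In αERKO mice the log2 change with DES was 0.36 (95% interval 0.07 to 0.66, limma adjusted p = 0.128).

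*C1ra* also has a close copy, *C1rb*, and 29.9% of the read-length stretches of its longest transcript occur in *C1rb*, so the *C1ra* values can hold reads of *C1rb*. *C1rb* was at 273, 198, 379 and 325 FPKM (αERKO-veh), 417, 383, 328 and 402 FPKM (αERKO-DES), 443, 356, 312 and 310.1 FPKM (WT-veh) and 54.4, 42.0, 34.2 and 39.5 FPKM (WT-DES). It was the more abundant copy in every sample outside WT-DES and the less abundant in every WT-DES sample, and fell by 3.04 on the log2 scale with DES in WT mice (limma adjusted p = 3.76e-09). The share of *C1ra* in the sum of both was 65.2% ± 4.62 (SD, n = 4) in WT-DES but 23.1% ± 0.772 (WT-veh), 23.9% ± 1.38 (αERKO-veh) and 23.3% ± 0.493 (αERKO-DES) elsewhere. The C1s genes, whose product is the next protease in the complex, were divided in a like way between *C1s1* (*C1s* in the table) and *C1s2* (*Gm5077*), which share 4.4% of the read-length stretches of *C1s1*. With DES in WT mice *C1s1* rose from 48.7 ± 6.47 to 167 ± 11.9 FPKM (log2 change 1.77, limma adjusted p = 2.12e-09) and *C1s2* fell from 102 ± 23.1 to 20.4 ± 2.25 (log2 change −2.25, limma adjusted p = 4.25e-07). How far shared reads move *C1ra* was not tested.

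**Figure D2:**
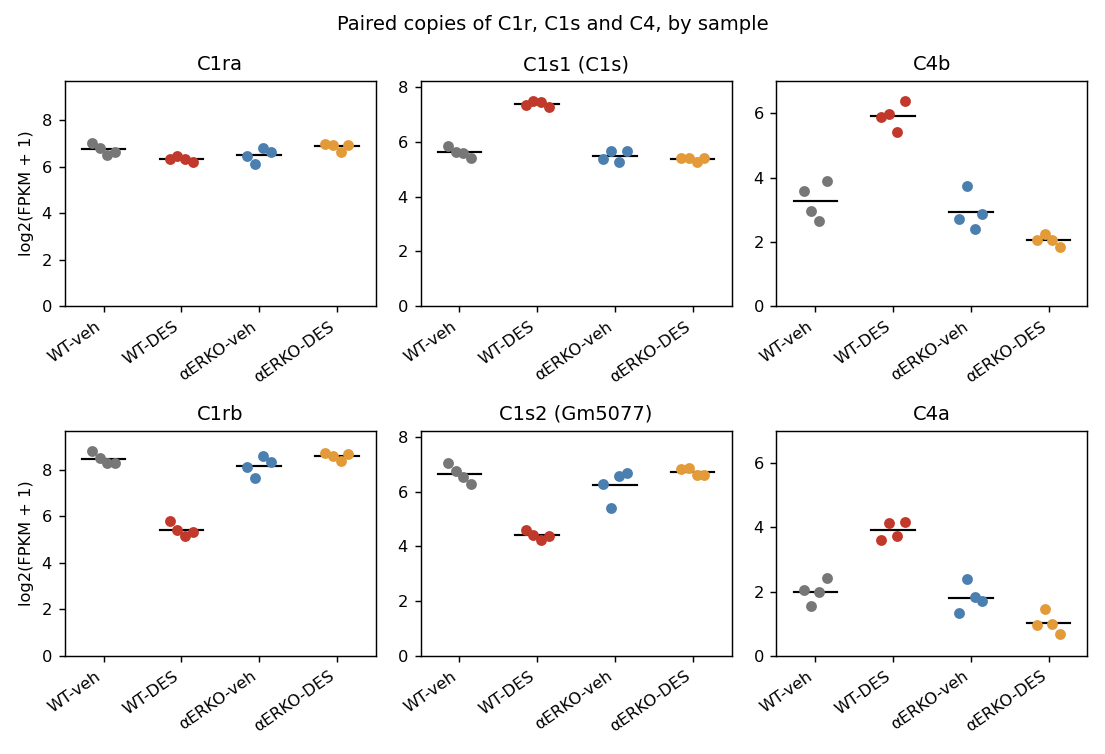
Paired gene copies of C1r, C1s and C4 are plotted in columns, with log2(FPKM + 1) on the vertical axis, a point per sample, a line at the group mean and a shared scale within a column. In WT-DES the lower copies C1rb and C1s2 fell (means of 42.5 and 20.4 FPKM against 355 and 102 in WT-veh) while C1s1 rose, and C4b and C4a rose together.

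*Cfi* encodes factor I, the protease that inactivates cleaved C3 and C4 and so acts against the convertases (chromosome 3, 129835884 to 129875332, plus strand). It was at 0.90, 0.57, 0.90 and 0.83 FPKM without and 3.31, 3.63, 1.81 and 3.71 FPKM with DES in WT mice, and 0.73, 0.78, 0.62 and 0.57 without and 0.94, 0.69, 0.68 and 0.73 with DES in αERKO mice. WT-DES alone was above 1 FPKM, and *Cfi* entered the test through that group. The mean rose from 0.80 ± 0.157 to 3.12 ± 0.887 (3.89-fold, log2 change 1.17, standard error 0.15, limma adjusted p = 4.06e-06). In αERKO mice the log2 change with DES was 0.07 (95% interval −0.24 to 0.38, limma adjusted p = 0.801).

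*Hc*, *C6* and *C7* belong to the terminal part of the system. *Hc* encodes C5, from which the pore assembly starts (chromosome 2, 34983331 to 35061438, minus strand), and was at most 0.16 FPKM in any sample. Its values were 0.04, 0.09, 0.10 and 0.03 FPKM without and 0.16, 0.10, 0.12 and 0.10 FPKM with DES in WT mice, and 0.05, 0.02, 0.08 and 0.05 without and 0.04, 0.02, 0.05 and 0.01 with DES in αERKO mice. It did not reach the minimum for the test. At 2 decimals these values are within a few steps of 0, and no fold is given.

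*C6* (chromosome 15, 4727175 to 4814967, plus strand) adds to the growing pore. It was at 0.22, 0.07, 0.10 and 0.10 FPKM without and 0.55, 1.77, 1.76 and 1.21 FPKM with DES in WT mice, and 0.05, 0.45, 0 and 0.07 without and 0.02, 0.03, 0 and 0.02 with DES in αERKO mice. WT-DES was above all other samples, although WT-DES sample 1, at 0.55 FPKM, came close to αERKO-veh sample 2 at 0.45. The gene passed the minimum only through WT-DES, where its mean was 1.32 ± 0.578 against 0.123 ± 0.0665 in WT-veh (10.8-fold, log2 change 1.01, standard error 0.17, limma adjusted p = 8.13e-05). Of the genes of C8 and C9, *C8a*, *C8b* and *C9* were at most 0.12 FPKM in any sample. *C8g* was at 1.57 to 2.88 FPKM in WT-DES and at 3.94 to 6.64 FPKM in the other groups.

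*C7*, which anchors the assembling pore to the membrane, lies 173794 bases from *C6* (chromosome 15, 4988762 to 5063740, minus strand). It was at 7.60, 31.3, 14.5 and 11.2 FPKM (αERKO-veh), 2.99, 4.12, 5.71 and 5.06 FPKM (αERKO-DES), 5.94, 3.32, 3.75 and 6.40 FPKM (WT-veh) and 12.98, 3.17, 5.87 and 5.11 FPKM (WT-DES). Every αERKO-veh sample was above every sample of both the WT-veh and the αERKO-DES group, and αERKO-veh sample 2 was highest of all. The mean was 16.1 ± 10.5 FPKM in αERKO-veh against 4.85 ± 1.54 in WT-veh, 3.33-fold higher, a difference of 1.41 on the log2 scale that became 1.05 without αERKO-veh sample 2. This is the difference for which *C7* was listed, and it is given as a description. With DES in WT mice the log2 change of *C7* was 0.30 (95% interval −0.52 to 1.13, limma adjusted p = 0.488), and −0.03 without WT-DES sample 1, whose 12.98 FPKM was the only WT-DES value above the WT-veh range.

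With DES in αERKO mice *C7* was 3.61-fold lower on average, with a log2 change of −1.50 (standard error 0.39) and a limma adjusted p of 0.0511, just outside the threshold. This contrast uses the αERKO-veh samples in which *C7* was picked for being high, so it is not independent of that choice. The call depended on single samples and settings. The limma adjusted p was 0.183 without αERKO-veh sample 2, and 0.0172, 0.027 and 0.0494 without αERKO-veh sample 1, WT-DES sample 1 and WT-DES sample 2, the last pair entering only through the shared estimate of the spread. In αERKO-DES the level of *C7* was near that of WT-veh, with a log2 difference of −0.09 (95% interval −0.91 to 0.74, limma adjusted p = 0.919).

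The comparison of WT-DES with WT-veh asks what neonatal DES left behind in the SV in the presence of ERα. *C2*, *C3*, *C4b*, *C6*, *Cfb* and *Cfi* were called higher and no member was called lower, while *C1ra* and *C7* were tested and not called and *Hc* was not tested. In this comparison 52.7% of all genes tested were called, 28.9% higher and 23.9% lower, so that a call alone does not set a gene apart. *C6* and *Cfi* were tested only because WT-DES was above the minimum, which favoured a call. The samples of the 2 groups did not overlap for 7 members, *C1ra* included, against 66.7% of all genes tested. The median log2 change over all genes tested was −0.01. The called changes of *C2*, *C3*, *C4b*, *C6*, *Cfb* and *Cfi* had the same sign after quantile normalization and after the rescaling without the 20 most abundant genes, a setting that shifted the median of all genes by 0.39 (log2). The call of *C6* was lost after quantile normalization, with a log2 change of 0.66 there (limma adjusted p = 0.000723).

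**Figure D3:**
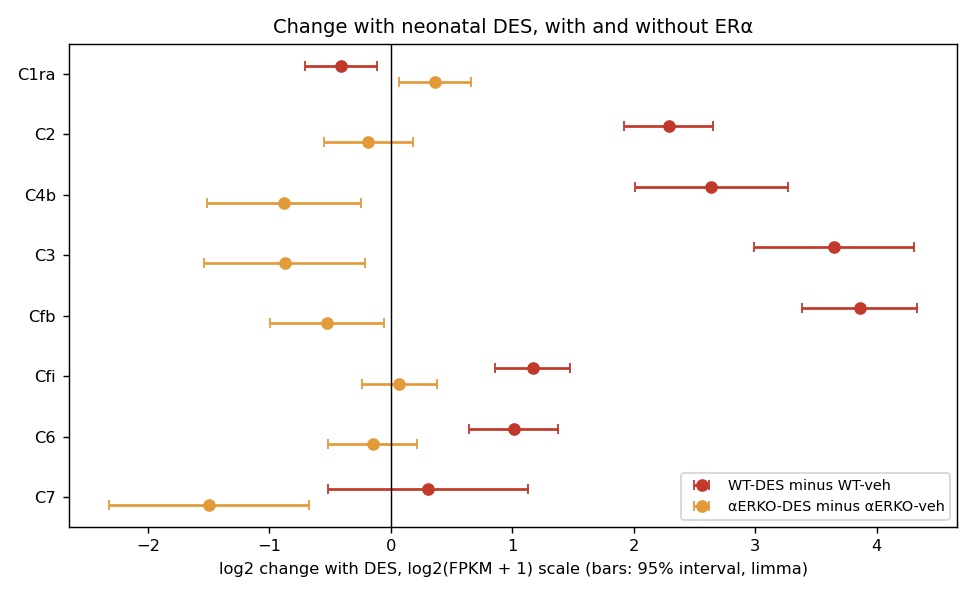
Log2 change with neonatal DES on the log2(FPKM + 1) scale (horizontal axis) is plotted for the 8 tested members in WT mice (red) and αERKO mice (orange), with bars for the 95% interval from limma. In WT mice 6 members lie between 1.01 and 3.86, and in αERKO mice all 8 lie at or below 0.36.

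The comparison of αERKO-DES with αERKO-veh asks which changes with DES occur without ERα. By limma, 0 of the 8 members tested were called, where 1.49% of all genes tested were called (0.0876% higher and 1.41% lower). An unadjusted p of 0.05 or less was found for 5, *C3*, *C4b*, *C7* and *Cfb* with lower means after DES and *C1ra* with a higher mean, where 25.3% of all genes had such a p. *C7* was listed on the αERKO-veh samples, so its values here are not independent of that choice. The number called was 0 or 1 over all alternatives, and leaving out αERKO-veh sample 3 brought in *C3* (log2 change −1.16, limma adjusted p = 0.0379). The groups did not overlap for *C4b* and *C7*, against 13% of all genes.

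The test of the difference between the 2 changes with DES, that in WT minus that in αERKO mice, was past the threshold for all 8 members tested. Of these, *C7* was listed on the αERKO-veh samples, and *C6* and *Cfi* were tested only through WT-DES, which leaves 5 members free of both limits. This test called 56.4% of all genes, 29.6% with a more positive and 26.9% with a more negative change in WT mice. The difference was 4.52 for *C3* (standard error 0.44, limma adjusted p = 5.9e-07), 4.38 for *Cfb* (standard error 0.31, limma adjusted p = 4.05e-08), 3.52 for *C4b* (standard error 0.42, limma adjusted p = 3.85e-06) and 2.47 for *C2* (standard error 0.24, limma adjusted p = 6.21e-07). It was smaller for the genes of low level, 1.16 for *C6* and 1.097 for *Cfi*. For *C7* it was 1.80 (limma adjusted p = 0.00853), made up of a change of 0.30 in WT mice and of −1.50 in αERKO mice. *C1ra* had the opposite sign, −0.77 (limma adjusted p = 0.00246), and was no longer called after quantile normalization or the rescaling without the 20 most abundant genes. Quantile normalization also ended the calls of *C7* (1.30, limma adjusted p = 0.0623) and *Cfi* (0.42, limma adjusted p = 0.0917).

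In the direct comparison of the DES-treated genotypes, the vehicle samples by which *C7* was listed enter only through the shared estimate of the spread. The log2 difference, αERKO-DES minus WT-DES, was −4.59 for *C3* (limma adjusted p = 6.02e-09), −4.33 for *Cfb* (4.23e-10), −3.87 for *C4b* (2.13e-08), −2.03 for *C2* (5.67e-08), −1.20 for *Cfi* (2.76e-06) and −1.15 for *C6* (2.2e-05), all from limma. These 6 members were called lower, where 53.4% of all genes tested were called and 29.6% were lower. Among them *C6* and *Cfi* had reached the minimum only through WT-DES, which favoured a call, and the call of *C6* was lost after quantile normalization (log2 difference −0.80). The samples did not overlap for 8 of the 9 members, *C7* being the exception, against 66.5% of all genes tested. The 8 include the untested *Hc*, at 0.10 to 0.16 (WT-DES) and 0.01 to 0.05 FPKM (αERKO-DES), levels too low to be read. Genes below the minimum are not part of that share. *C7* differed by −0.39 (95% interval −1.21 to 0.43, limma adjusted p = 0.375), and *C1ra* by 0.54 (limma adjusted p = 0.00233), at 1.47-fold just short of a call. The *C1ra* difference was −0.03 after quantile normalization (limma adjusted p = 0.874), and passed as a call without WT-DES sample 2 (0.59) or αERKO-DES sample 3 (0.62).

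αERKO-DES was also set beside WT-veh, a comparison made after the values were seen. The samples of these groups did not overlap for *C3*, *C4b*, *C6* and *Cfb*, all lower in αERKO-DES, against 21.0% of all genes in either direction. For *C6* this rests on 0 to 0.03 FPKM (αERKO-DES) against 0.07 to 0.22 (WT-veh), within a few steps of 0. *C4b* was called, 2.93-fold lower (log2 difference −1.23, standard error 0.30, limma adjusted p = 0.0238), where 3.18% of all genes were called and 1.97% were lower. In this comparison 6 of 8 adipocyte genes and 3 of 6 fibroblast genes were also called lower, with no overlap of either sum, and so were 5 of the 35 other complement genes tested, *C4a*, *C4bp*, *Cfd*, *Cfp* and *Fcna*. The part of these cell types was not tested. The adjusted p of *C4b* rose to 0.0633, 0.0839, 0.0687 and 0.0809 without WT-veh sample 1, WT-veh sample 4, αERKO-DES sample 3 and αERKO-DES sample 4 in turn. *C3* was 2.08-fold lower (log2 difference −0.94, limma adjusted p = 0.0731) and passed without αERKO-veh sample 2 (0.0274) or 3 (0.0414). *Cfb* was 1.57-fold lower (log2 difference −0.47, limma adjusted p = 0.187). In the order of group means WT-DES came first for *C2*, *C3*, *C4b*, *C6*, *Cfb* and *Cfi* with no overlap with the next group. The other groups overlapped with their neighbours in this order, except αERKO-DES, which was last and did not overlap with its neighbour for *C3*, *C4b*, *C6* and *Cfb*. For *C1ra*, *C7* and *Hc* every group overlapped with the next.

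Between αERKO-veh and WT-veh, where 7.12% of all genes tested were called (4.5% higher), the members other than *C7* differed by −0.35 (*C4b*) to 0.44 (*C2*) on the log2 scale, given here without a test. *C7* was the 1 member of 9 whose samples did not overlap between these groups, against 29.7% of all genes. In 7 of the 9 members αERKO-veh sample 2 had the highest value of its group, among them *C3* at 33.1 FPKM, *C4b* at 12.5 and *C7* at 31.3. The same sample had the highest summed FPKM of 8 adipocyte genes in its group, 1140 against 106 to 475 in the others, although 0 of these 8 genes were called between αERKO-veh and WT-veh. Its sums were also highest for 6 fibroblast (980), 4 mesothelial (9.25), 5 neutrophil (2.40) and 9 leukocyte genes without *Cd52* (52.5). They were lowest for 6 epithelial (1182), 7 SV secretory (27578), 4 anterior prostate (3365) and 8 hepatocyte genes (1.70). For macrophage, smooth muscle and skeletal muscle genes they were neither. Of 8 skeletal muscle genes 2 were called higher in αERKO-veh, or 5 after the rescaling without the 20 most abundant genes, with overlapping sums of 599 to 2199 FPKM against 578 to 1877 FPKM. The part of these cell types in these values was not tested.

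**Figure D4:**
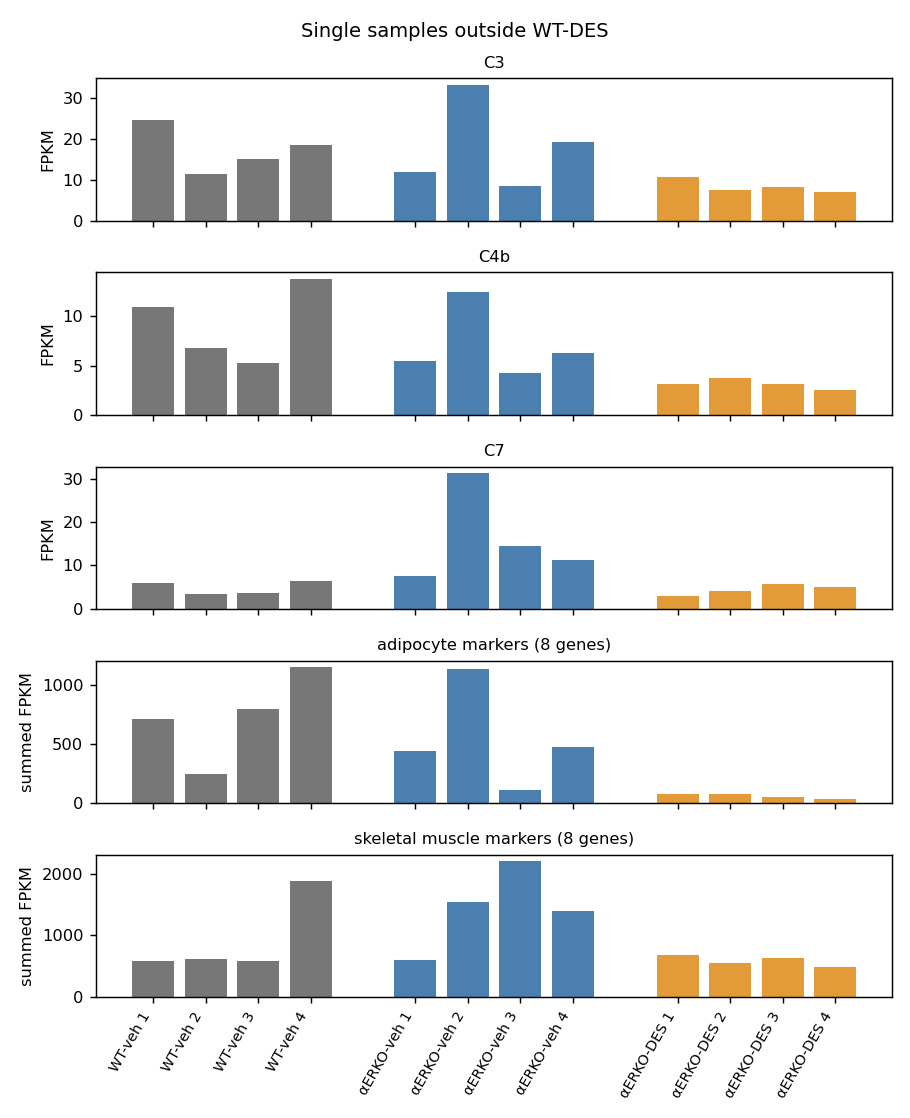
Bars give the FPKM of C3, C4b and C7 and the summed FPKM of 8 adipocyte and 8 skeletal muscle marker genes in each sample outside WT-DES (vertical axes from 0, 1 bar per sample, numbered as in the labels). αERKO-veh sample 2 is highest of its group for C3, C4b, C7 and the adipocyte sum, αERKO-veh sample 3 for the skeletal muscle sum, and αERKO-DES has the lowest adipocyte sums, 34.0 to 77.8.

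The levels of cell type markers moved together with the members. Between WT-veh and WT-DES the summed FPKM of 9 macrophage genes (*Adgre1*, *Csf1r* and others, the 3 C1q genes among them) went from 203 to 346 up to 851 to 1171, and all 9 were called higher. Of 10 general leukocyte genes 9 were called higher and *Cd52*, which was at 2837 to 3022 FPKM in WT-veh, was called lower, and the sum without *Cd52*, a choice made after its values were seen, went from 45.5 to 71.0 up to 223 to 387. *Ptprc*, which encodes the pan-leukocyte marker CD45, was 1.77 to 3.80 FPKM in WT-veh and 21.5 to 43.5 in WT-DES.

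All 5 neutrophil genes found in the table were called higher, and their sum was 2.94 to 5.01 FPKM without DES and 98.9 to 904 FPKM with it, with the top value in WT-DES sample 1. All 6 fibroblast genes were called higher (sums of 731 to 881 in WT-veh and 1916 to 2091 in WT-DES), as were all 4 mesothelial genes (4.78 to 7.37 against 34.2 to 127) and 5 of 8 adipocyte genes (241 to 1151 against 914 to 2154). The sums of the 4 anterior prostate genes, such as *Pbsn*, went the other way, from 3810 to 4359 in WT-veh down to 28.9 to 334 in WT-DES, and of 6 smooth muscle and 6 epithelial genes 4 each were called lower. After quantile normalization none of the 12 was called lower, 1 epithelial gene was called higher, and *Epcam* and *Tagln* changed sign. After the rescaling without the 20 most abundant genes 3 smooth muscle genes were called lower, and of the epithelial genes 1 was called higher and 1 lower. The sum of 8 skeletal muscle genes was 578 to 1877 FPKM in WT-veh and 38.6 to 343 FPKM in WT-DES, with 2 of the 8 called lower. In this comparison 28.9% of all genes were called higher and 23.9% lower. Of the genes called higher, 3 neutrophil genes (*Cxcr2*, *Mmp8* and *S100a9*), 2 leukocyte genes (*Cd79a* and *Ms4a1*), *Lrrn4* of the mesothelial and *Lep* of the adipocyte list were tested only through WT-DES, which favoured a call.

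The 8 hepatocyte genes, which mark the main source of plasma complement, were near 0, with a sum of at most 5.14 FPKM in any sample except αERKO-veh sample 4 (13.9). *Alb* was at 0.64 to 2.09 FPKM in WT-DES against 0.10 to 0.29 in WT-veh, and *Apoa2* at 0.54 to 1.65 against 2.05 to 3.11. Of the 8, 2 were tested, and between WT-DES and WT-veh 0 were called higher and 1 lower. The part of the leukocyte, fibroblast and mesothelial genes in the rise of the members was not tested. In whole SV tissue a change in the number of cells of a type and a change in RNA per cell cannot be told apart.

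For the lower values of *C3*, *C4b*, *C7* and *Cfb* in αERKO-DES, the adipocyte, skeletal muscle and fibroblast lists had values that moved with them. The adipocyte sum was 442, 1140, 106 and 475 FPKM (αERKO-veh) against 71.8, 77.8, 51.4 and 34.0 FPKM with DES, with 5 of 8 genes called lower. The skeletal muscle sum was 599 to 2199 FPKM without DES against 479 to 680 FPKM with it, which overlap, with 6 of 8 genes called lower. The fibroblast sum was 599 to 980 FPKM without DES and 496 to 594 FPKM with it, with no overlap and 1 of 6 genes called lower. Over all genes tested 1.41% were called lower between these groups. After quantile normalization 0 genes of these 3 lists were called. Within αERKO-veh, *C7*, the adipocyte sum and the fibroblast sum were highest in sample 2 and the skeletal muscle sum in sample 3. The part of these lists in the result was not tested.

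The other complement genes were taken from a list of 46 by role, all present in the table, of which 35 reached the minimum for the test. Between WT-DES and WT-veh 24 were called higher and 5 lower, beside 28.9% and 23.9% of all genes tested, with a median log2 change of 1.19 over the 35 beside −0.01 over all genes. The direction of the called genes held under each scaling tried, except *Cd46*, which changed sign after quantile normalization. Of the genes called higher, *C5ar2*, *Cpn1* and *Cd55b* (*Daf2* in the table) were tested only because WT-DES was above the minimum, which favoured a call, and they are part of the counts by role.

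Among the genes of initiation, 6 of 10 tested rose and 3 fell. *C1qa*, *C1qb* and *C1qc*, the chains of the recognition protein C1q and products of macrophages, rose by 1.60, 1.62 and 1.66 on the log2 scale, as did *Masp1* (1.22) and *Colec11* (1.05) of the lectin route. *C1rb* (−3.04), *C1s2* (*Gm5077*, −2.25) and the C1r-like gene *C1rl* (−1.05) fell. Among the soluble inhibitors 6 of 7 rose, led by *C4bp*, which encodes a chain of the C4b-binding protein, from 1.43 ± 0.447 to 14.9 ± 5.87 FPKM (log2 change 2.65, limma adjusted p = 1.81e-07). *Serping1*, the C1 inhibitor, rose from 134 ± 12.6 to 308 ± 25.6 FPKM (log2 change 1.19, limma adjusted p = 4.69e-07).

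Of the membrane inhibitors, which protect host cells, 3 of 6 rose and 1 fell. *Cd55* rose by 0.97 and *Cr1l* fell by 0.83 on the log2 scale. Of the receptors 7 of 8 rose and 0 fell. *Itgb2*, the shared chain of complement receptors 3 and 4, rose by 2.86, *Itgax* by 2.12 and the anaphylatoxin receptors *C5ar1* and *C3ar1* by 1.99 and 1.93. In the group of further components *C4a* (1.91) and *Cfp*, which encodes properdin (1.79), rose, and *C8g* fell by 0.89.

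With DES in αERKO mice 0 of these 35 genes were called higher and 1 lower, beside 0.0876% and 1.41% of all genes tested, with a median log2 change of −0.07 beside 0.02 over all genes. The gene was *Cfd*, which encodes factor D (adipsin), the protease of the alternative route made mainly by fat cells and 1 of the 8 adipocyte markers. It was at 148, 402, 25.7 and 166 FPKM after vehicle and 15.3, 20.2, 9.30 and 1.61 FPKM after DES in αERKO mice (log2 change −3.70, standard error 0.76, limma adjusted p = 0.0351), and at 303, 93.8, 275 and 432 in WT-veh. The αERKO groups did not overlap for *Cfd*. The count of 1 became 0 without WT-veh sample 3, αERKO-veh sample 2 or 4, or αERKO-DES sample 1, 2 or 3, and 2 without αERKO-veh sample 1. The test of the difference between the changes with DES called 29 of the 35, 24 with a more positive and 5 with a more negative change in WT mice, beside 29.6% and 26.9% of all genes.

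Between αERKO-veh and WT-veh 4 of the 35 were called lower and 0 higher, *C1qa* (log2 difference −0.67, limma adjusted p = 0.0193), *C1qb* (−0.67, limma adjusted p = 0.0181), *C1qc* (−0.58, limma adjusted p = 0.0251) and *Cfp* (−0.57, limma adjusted p = 0.0131), beside 2.63% of all genes lower. *C1qa* was at 69.8, 43.3, 53.2 and 67.6 FPKM (WT-veh) and 38.3, 32.6, 31.9 and 40.6 FPKM (αERKO-veh), with no overlap. The macrophage sum lay between 203 and 346 FPKM (WT-veh) and between 144 and 210 FPKM (αERKO-veh), with 4 of 9 genes called lower, the C1q genes among them. This sum is not separate from the C1q calls, since it contains these genes. Of its other genes, *Lyz2* had means of 84.0 (WT-veh) and 47.5 FPKM (αERKO-veh). *Mrc1* was at 3.48 and 3.45, *Cd163* at 1.34 and 1.27, *Adgre1* at 3.98 and 3.38, *Csf1r* at 11.2 and 9.57, and *Cd68* at 8.78 and 6.80. The 4 macrophage calls became 0 after quantile normalization, 0 with the length trend subtracted and 1 after the rescaling without the 20 most abundant genes. The count of 4 other complement genes became 1 without WT-veh sample 1, WT-veh sample 4 or αERKO-veh sample 2. It was 2 after quantile normalization, 1 with the length trend subtracted and 0 after the rescaling without the 20 most abundant genes.

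**Figure D5:**
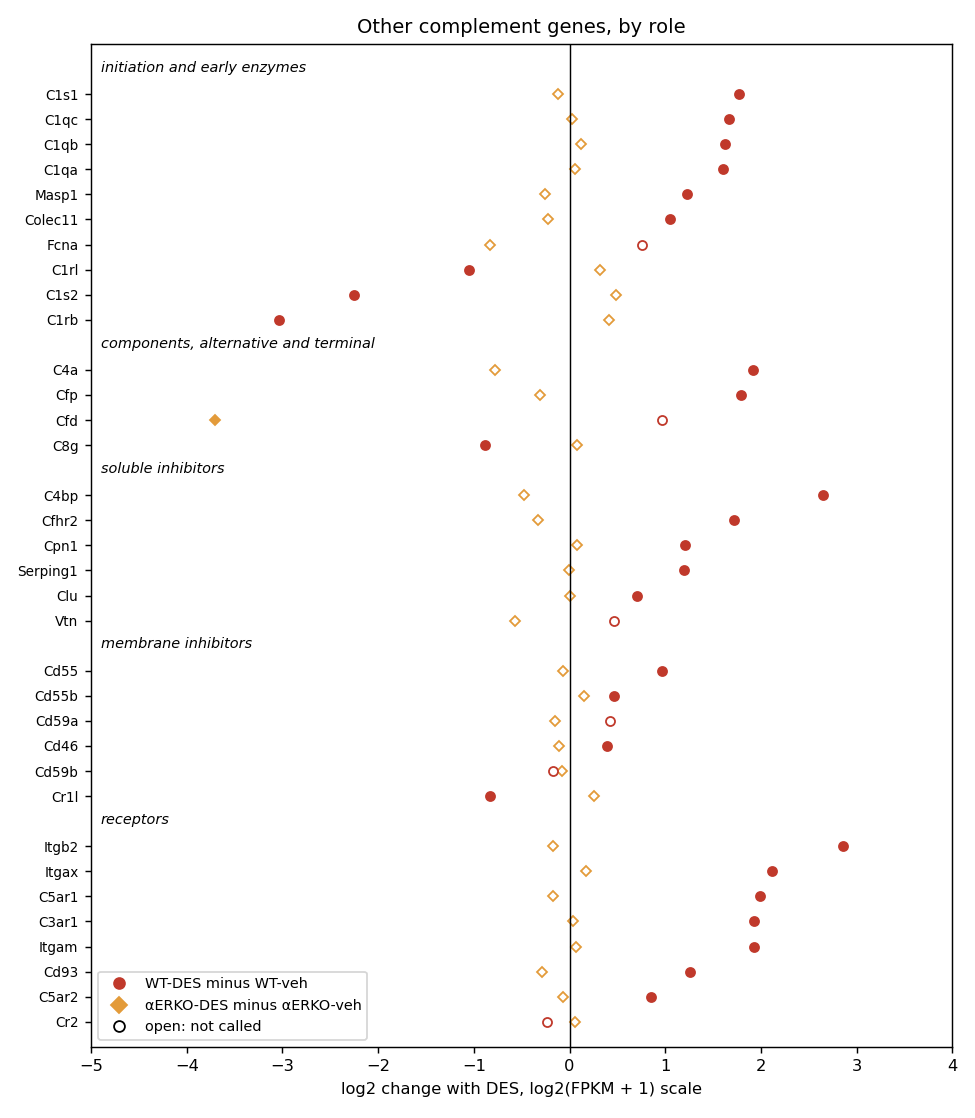
Log2 change with neonatal DES on the log2(FPKM + 1) scale (horizontal axis) is plotted for the other complement genes tested, except 1 not shown, grouped by role, in WT mice (red circles) and αERKO mice (orange diamonds), with filled symbols for called genes. In WT mice the called genes run from Itgb2 at 2.86 to C1rb at −3.04, and in αERKO mice Cfd at −3.70 was the 1 gene called.

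The patterns of the members over the 16 samples were compared by Pearson's r of log2(FPKM + 1), as a description. The samples of a group share their condition, and for *C3* the gap between WT-DES and the other groups enters every value. *C3* was most like *Cfb* (r = 0.985), *C4b* (0.977), *C2* (0.939), *C6* and *Cfi* (0.926 each) among the members, and r was 0.07 with *C7* and −0.69 with *C1ra*. Outside the members *Mrc1*, *C1qtnf1*, *Htra3* and *Fbln1* had the highest r with *C3* (0.989 to 0.992). *Mrc1*, a mannose receptor of macrophages and 1 of the macrophage markers above, had mean FPKM of 19.9 in WT-DES but 3.48 (WT-veh), 3.45 (αERKO-veh) and 1.84 (αERKO-DES) in the other groups. *C7* was most like *Myh2* (r = 0.890), *Pfkm* (0.851), *Adssl1* (0.847) and *Slc10a5* (0.831), which all had their highest mean in αERKO-veh, the group for which *C7* was listed. *Myh2* encodes a skeletal muscle myosin and had means of 0.275 and 0.79 FPKM in the WT groups (vehicle and DES) and of 2.60 and 0.318 FPKM in the αERKO groups.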

How the data were processed

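RNA-seq of the SV at week 5 was analysed in 16 samples of 4 groups. FPKM values were deposited by the authors, who sequenced paired ends, removed reads of low quality, mapped the rest with TopHat 2.0.4 (build mm10) and derived expression with Cufflinks 2.0.2. The gene annotation and any further scaling are not given in the sources used here, and neither are counts, so depth is unknown and precision rests on 4 samples per group. That these came from separate mice is stated for all groups but WT-DES. Otherwise p-values measure the spread between samples.

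The 15988 of 31274 genes whose mean exceeded 1 FPKM in any of the groups were fitted as log2(FPKM + 1) with limma 3.58.1 in R 4.3.3 (eBayes with trend, Benjamini-Hochberg adjustment), in steps tested on simulated data. For interaction calls the difference had to be 1.5-fold with the same limit on p.

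The members and lists were chosen with earlier results of these data known. Named are all members, other complement genes called in WT-DES or the interaction (at least the 2 largest rises and falls per role) or in another comparison, *Esr1*, listed markers, and the 4 genes most like *C3* and *C7*. The values of 1 other complement gene are not reported here. Shared read-length stretches were counted between the longest GENCODE M21 transcripts. Tables and plots were made in Python 3.11.15 (numpy 2.4.6, pandas 2.3.3, matplotlib 3.10.9). Results were recomputed with a pseudocount of 0.1, without a minimum or with one of 5 FPKM, only the groups compared, no trend, a replicate block, 3 scalings, an adjusted p of at most 0.01, a subtracted trend on transcript length (94.1% of tested genes had a length) and leaving out each sample. Protein sequences were not analysed here.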

Additional observations from a re-analysis of the deposited data

Results flagged for a closer look

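Over the 9 members in 4 groups, 36 sets of 4 values were searched for a sample far from the other 3, by the ratio of its gap to the whole range against Dixon's 95% critical value. Chance alone marks about 1 in 20 such sets, and 2 were marked. *C1ra* in αERKO-DES sample 3 was 98.03 FPKM, with the others at 121 to 124 (ratio 0.882). *C6* in αERKO-veh sample 2 was 0.45 FPKM, with the others at 0 to 0.07 (ratio 0.844).

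The change with DES differed between WT and αERKO mice for the 8 members tested (limma interaction, adjusted over all genes, where 56.4% of all genes were called). The difference in log2 change, WT minus αERKO, was 4.52 for *C3*, 4.38 for *Cfb*, 3.52 for *C4b*, 2.47 for *C2*, 1.80 for *C7*, 1.16 for *C6*, 1.097 for *Cfi* and −0.77 for *C1ra*. The value of *C7* rests mainly on the αERKO-veh samples for which it was listed, *C6* and *Cfi* were tested only through WT-DES, and *C1ra*, *C7* and *Cfi* were not called after quantile normalization.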

How the results depend on the processing

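Of the recomputed log2 changes of members, 1022 kept their direction and their side of the threshold, 14 came to pass it and 11 no longer did. Direction turned for *C1ra* in WT-DES vs WT-veh (0.18 after quantile normalization, 0.0186 after rescaling without the 20 most abundant genes) and in αERKO-DES vs WT-DES (−0.0275, quantile), for *C7* in WT-DES vs WT-veh (−0.0672, quantile, and −0.0265 to 0.555 without single samples, the lowest without WT-DES sample 1), in αERKO-DES vs WT-DES (0.0470, quantile) and in αERKO-DES vs WT-veh (−0.219 to 0.0569 without single samples, above 0 without WT-veh sample 1 or 4 or αERKO-DES sample 1), and for *Cfi* in αERKO-DES vs WT-veh (0.12, quantile, and 0.0642 with the length trend subtracted). None of these was called in the model reported. In αERKO-veh vs WT-veh, which was not tested, values near 0 also changed sign without single samples (*C3* −0.402 to 0.22, *C6* −0.109 to 0.0698, *Cfb* −0.184 to 0.206) and under another scaling. The number of members called with DES in αERKO mice went from 0 to 1 with a pseudocount of 0.1, a minimum of 5 FPKM, median-ratio scaling or the length trend subtracted, and was 0 to 1 without single samples. That in αERKO-DES vs WT-veh went from 1 to 3 with only the groups compared and to 0 at an adjusted p of 0.01, and was 0 to 2 without single samples. The interaction calls went from 8 to 5 after quantile normalization. Among the other complement genes the count with DES in αERKO mice went from 1 to 2 with a pseudocount of 0.1, to 0 with only the groups compared, quantile normalization or an adjusted p of 0.01, and was 0 to 2 without single samples. The count in αERKO-veh vs WT-veh went from 4 to 2 (quantile), 0 (rescaling), 0 (adjusted p of 0.01) or 1 (length trend), and was 1 to 6 without single samples. The cause was not tested. Without a minimum, *Hc* was fitted among 22638 genes (log2 change 0.07 in WT-DES vs WT-veh, limma adjusted p = 0.0285), at levels too low to be read.

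Sample numbers recur in all groups. Deviations from the group mean correlated between equal numbers at −0.215 to 0.277, so the numbers were not taken as pairs. With the replicate block the number of members called stayed 6 in WT-DES vs WT-veh, and calls over all genes went from 8428 to 8409 there and from 508 to 394 in αERKO-DES vs WT-veh.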

Other observations

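*Vsig4*, a complement receptor of tissue macrophages, did not reach the minimum for the test and was picked out after its values were seen. Its FPKM was 0.32, 0.49, 0.26 and 0.32 in WT-DES and 0 to 0.12 in the other 12 samples, with no overlap. *Cpn1*, which encodes the catalytic chain of the carboxypeptidase that trims anaphylatoxins, was called higher after DES in WT mice (log2 change 1.21, limma adjusted p = 0.00113), with unequal values of 0.44, 4.43, 1.60 and 1.34 FPKM in WT-DES against 0.06 to 0.26 in WT-veh. It was tested only because WT-DES was above the minimum, which favoured this call.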
